A study of Mus musculus with 44 samples.

Results

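Short TRB CDR3s were taken as the T cell receptor β-chain CDR3 sequences of 11 residues or fewer. They were found by 2 criteria, a C-terminal ending that belongs to 1 of 12 mouse TRB J genes and the deposited length. They made up 1857 of 72765 distinct TRB CDR3s (2.55%) and 121860 distinct CDR3s of either chain. Counted once for each tumour that held them, they formed 2981 of 95913 TRB entries (3.11%) and 133676 of 6301600 TRB reads (2.12%). The receptors were sequenced from bulk B16F10 melanoma, a mouse line grown subcutaneously in wild-type C57BL/6 hosts, and collected on day 12 from 100 µg of tissue. Of the 44 tumours, 14 came from control mice labelled vehicle and 15 from mice given the checkpoint antibody anti-PD-1 (aPD-1 in the labels). The other 15 came from mice given AC484, a small molecule that blocks the active sites of 2 phosphatases, PTPN2 and PTPN1. The deposited IDs of the control tumours read No_Tx, and the paper's methods list no treatment, so whether they received vehicle is not settled. All 3 groups shared the tumour line and the wild-type host. The doses used for these tumours are not given in the labels. The question asked of the series was how treatment changed the T cell repertoire of the tumour.

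TRB reads ranged from 5060 to 407156 per tumour, and 4 vehicle tumours had under 10000. Libraries carried 4 index primer sets that followed the treatments: set 1 held 12 vehicle tumours, set 2 held 2 vehicle and 10 anti-PD-1 tumours, set 3 held 5 anti-PD-1 and 7 AC484 tumours, and set 4 held 8 AC484 tumours. No set held vehicle and AC484 together, so treatment and index set cannot be told apart in that comparison. In these bulk samples, fewer T cells and less receptor RNA per cell cannot be told apart. The reads carried no molecular identifiers, so intervals cover counting error only.

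The CDR3 is the loop of the receptor that lies over the peptide held by an MHC molecule. In the β chain it begins with the last residues of a V segment, starting at a conserved cysteine, runs through a D segment and ends in a J segment at a conserved phenylalanine. Enzymes trim the joined ends and add bases that no segment encodes. A short CDR3 therefore has little room between its V start and its J end.

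The J segments that bear on the length limit are shown first, from GENCODE for GRCm38, 5′ to 3′ on the plus strand of chromosome 6 within the Trb locus. Capitals mark the bases that code for CDR3 residues. Trbj2-7 (chr6:41543810-41543856) and Trbj1-1 (chr6:41533864-41533911) carry 6 germline CDR3 residues, Trbj2-1 (chr6:41542754-41542803) carries 7 and Trbj1-6 (chr6:41535554-41535606) carries 8. The D segment Trbd1 (chr6:41533201-41533212) is shown because its 3 reading frames all hold glycine.
Trbj2-7: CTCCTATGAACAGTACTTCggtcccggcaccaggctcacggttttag
Trbj1-1: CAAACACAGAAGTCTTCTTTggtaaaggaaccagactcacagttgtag
Trbj2-1: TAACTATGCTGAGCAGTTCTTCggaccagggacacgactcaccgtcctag
Trbj1-6: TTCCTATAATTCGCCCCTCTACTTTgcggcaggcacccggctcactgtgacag
Trbd1: GGGACAGGGGGC

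Of the short CDR3s, 7 are shown next, as residues from the conserved cysteine to the conserved phenylalanine. The first 4 are examples of short CDR3s found in many tumours, though not the 4 found in the most, and the last 3 reached the highest percent of TRB reads in any 1 tumour.
Trbj1-1, 20 tumours: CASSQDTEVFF
Trbj2-7, 17 tumours: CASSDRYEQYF
Trbj2-7, 15 tumours: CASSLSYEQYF
Trbj2-7, 11 tumours: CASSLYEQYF
Trbj2-1, 15 tumours: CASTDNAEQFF
Trbj2-1, 11 tumours: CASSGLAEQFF
Trbj2-7, 8 tumours: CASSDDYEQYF
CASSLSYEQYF matched a V start of 5 residues (CASSL) and the 6 germline residues of Trbj2-7, with no residue left over. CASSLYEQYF matched the same V start and 5 residues of the same J end. Residues alone do not show which bases were trimmed or added at the joins. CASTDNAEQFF held 3 residues, and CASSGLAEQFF 2, that matched neither end.

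Most short CDR3s lay at the limit. Of the 1857, 1544 had 11 residues, 260 had 10, 44 had 9, 4 had 8, 4 had 7 and 1 had 6. Just inside the limit, CDR3s of 11 residues made up 2.62% of TRB entries, with a mean of 46.4 reads and a median of 5. Just outside it, CDR3s of 12 residues made up 8.74% of entries, with a mean of 78.4 reads and a median of 5. All but 26 of the 2981 short entries began with the conserved cysteine. Requiring a whole J ending left out trimmed ones: of 4806 entries of 11 residues or fewer with the last 4 residues of such an ending, 38.0% were not counted, against 10.3% of the longer entries.

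The short CDR3s had fewer residues outside the germline ends. Each CDR3 was compared with the germline V starts and with its own J end, and the residues matched by neither were counted. A median of 2 residues was left over in short CDR3s and 4 in longer ones. In 167 short CDR3s (8.99%) every residue was matched, as was the case in 58 of 70908 longer ones (0.0818%). The V part was shorter by this count, at a mean of 3.64 residues against 4.34, and so was the J part, at 5.39 against 6.03. These differences follow in part from the length limit and were not tested. Among the left-over residues, glycine led in both classes, at 19.4% of 3291 residues in short CDR3s and 29.7% in longer ones, and arginine came next, at 14.2% and 9.38%. The start CASS, which most V segments encode, was seen in 48.5% of short entries and 67.5% of longer ones. The start CASR, in which arginine replaces the serine at the fourth place, was seen in 9.19% and 3.85%.

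J gene use differed between short and longer CDR3s of the same tumours in 8 of the 12 genes (two-sided permutation test flipping the sign of each tumour's difference, Benjamini-Hochberg over 12 genes). Trbj2-7 supplied 31.0% ± 12.6 of a tumour's distinct short CDR3s and 14.7% ± 1.34 of its longer ones (SD, n = 44), and was higher among the short ones in 41 of 44 tumours (adjusted p = 2e-05, permutation test). Trbj1-1 was the other gene that rose, from 9.44% ± 1.36 to 14.1% ± 7.16, in 38 of 44 tumours (adjusted p = 6.86e-05, permutation test). Trbj1-3, Trbj1-5, Trbj1-6, Trbj2-2, Trbj2-3 and Trbj2-4 fell. Trbj1-6, with the longest germline end, supplied 0.479% ± 0.786 of short and 3.45% ± 0.784 of longer CDR3s and was lower among the short ones in all 44 tumours. With only 21 short Trbj1-6 entries in all, many tumours held none and counted as lower for that reason. Trbj1-2, Trbj1-4, Trbj2-1 and Trbj2-5 did not pass the test.

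Seen from the J genes, 949 of 14807 Trbj2-7 entries were short (6.41%), as were 431 of 9160 Trbj1-1 entries (4.71%) and 21 of 3064 Trbj1-6 entries (0.685%). Trbj1-2 also has 6 germline CDR3 residues, and 2.78% of its entries were short. J use is not independent of the length limit, since the J segments differ in how many residues they bring and the ending asked for was 5 residues in 9 genes and 6 in Trbj1-3, Trbj1-6 and Trbj2-4. Counted by reads in place of distinct CDR3s, 4 genes passed the test, and Trbj1-1 stood 1.61 percentage points lower among short CDR3s, a difference of −1.61 (adjusted p = 0.411, permutation test). At a limit of 10 residues Trbj1-1 was 0.603 points higher (adjusted p = 0.783, permutation test).

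**Figure D1:**
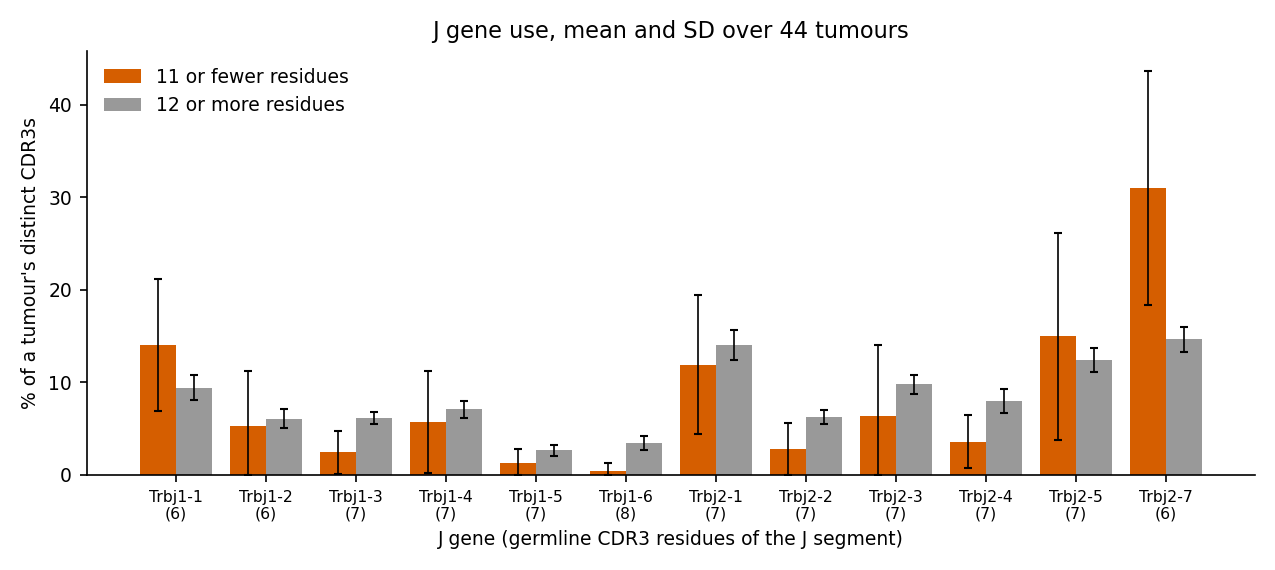
J gene use in 44 tumours. Bars give the mean percent of a tumour's distinct CDR3s for CDR3s of 11 or fewer and of 12 or more residues, error bars the SD (cut at 0), and the number in parentheses the germline CDR3 residues of each J segment. Trbj2-7 stands at 31.0% of short and 14.7% of longer CDR3s.

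No difference between treatments in the J genes of short CDR3s passed the test. The numbers of distinct CDR3s per J gene and length class were tested by edgeR's quasi-likelihood method over all 68 classes with enough CDR3s, of which 0% were called in each of the 3 comparisons. Of the 8 short classes tested, 0 were called in any comparison and 0 reached an unadjusted p of 0.05, and DESeq2 called 0 as well. Over all 68 classes, 8, 12 and 3 reached that unadjusted p for AC484 against vehicle, AC484 against anti-PD-1 and anti-PD-1 against vehicle. Trbj2-7 supplied 30.5% ± 21.1 of the short CDR3s of vehicle tumours (n = 14), 29.96% ± 7.27 of those of anti-PD-1 tumours (n = 15) and 32.6% ± 4.17 of those of AC484 tumours (n = 15). The largest shift of the 8 was that of Trbj2-4 in anti-PD-1 against vehicle tumours, at 0.89 ± 0.53 on the log2 scale (SE, edgeR adjusted p = 0.589), with 47 and 7 distinct entries. Trbj1-3, Trbj1-5, Trbj1-6 and Trbj2-2 had too few short CDR3s to be tested.

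Short CDR3s were shared between tumours more often than longer ones. Of the 1857, 26.1% were found in 2 or more tumours, 68 in 5 to 9 and 14 in 10 or more, whereas 14.9% of longer CDR3s were found in 2 or more. Within a tumour, 58.6% ± 13.9 of distinct short CDR3s and 40.2% ± 8.88 of longer ones were also found in another tumour (SD, n = 44). The difference was 18.4 percentage points ± 10.2, positive in 42 of 44 tumours (adjusted p = 1e-05, sign-flip permutation test, the smallest p these permutations can give). Each tumour's sharing depends on what the other tumours held, so the 44 differences are not independent. Flipping signs tumour by tumour does not allow for that. Counting only tumours of another index set gave 18.7 points, and leaving out every entry with fewer reads than 1% of the most that CDR3 had in any tumour gave 22.2 points. The difference was 17.0 points ± 16.7 in vehicle (n = 14), 19.3 ± 5.89 in anti-PD-1 (n = 15) and 18.9 ± 4.85 in AC484 tumours (n = 15), and no difference between them passed the permutation test (adjusted p of 0.816 to 0.835).

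Sharing did not rise all the way down in length. It was highest at 11 residues (26.5% of distinct CDR3s), stood at 25.4% at 10 and 18.2% at 9, where only 44 CDR3s were counted, and fell from 23.7% at 12 residues to 6.99% at 16. For the 3 shortest lengths that occurred in at least 10 tumours, the most shared members were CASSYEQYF (9 residues, 9 tumours), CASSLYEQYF (10 residues, 11 tumours) and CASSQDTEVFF (11 residues, 20 tumours). Shared short CDR3s crossed treatments: 56 (11.6%) were found in all 3 groups, 252 (52.1%) in 2 groups and 176 (36.4%) in 1.

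**Figure D2:**
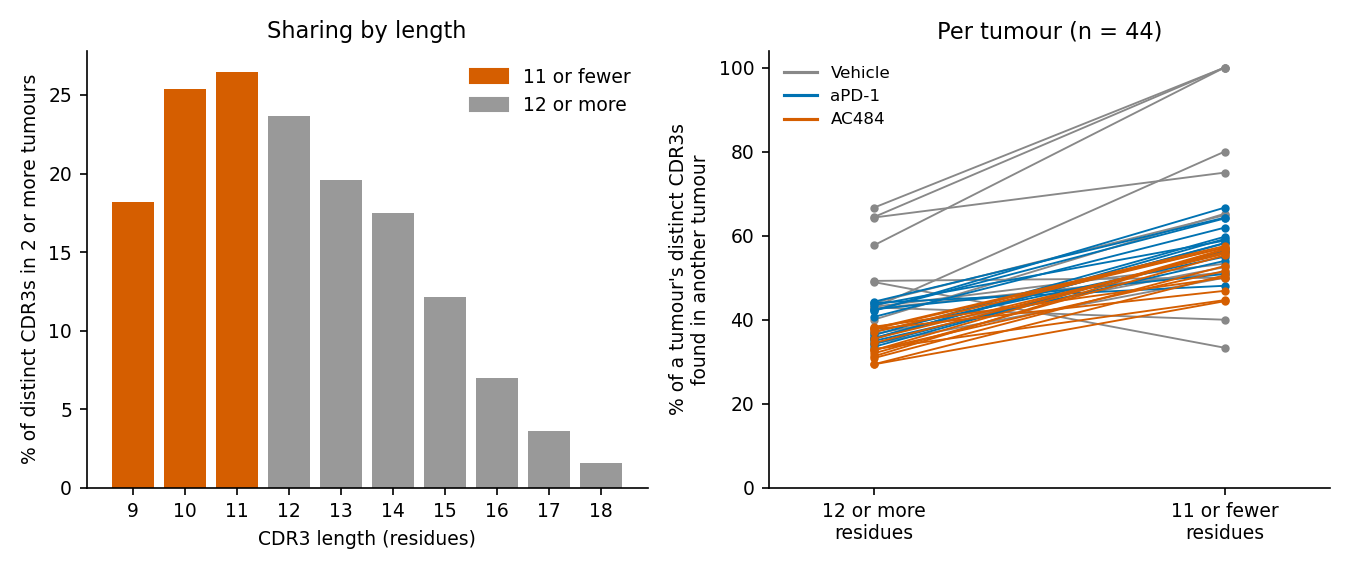
Sharing of TRB CDR3s between tumours. Left, percent of distinct CDR3s of each length found in 2 or more tumours, highest at 11 residues (26.5%); right, percent of each tumour's distinct CDR3s found in another tumour, 1 line per tumour, higher for short CDR3s in 42 of 44.

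The fewer residues lay outside the germline ends, the more often a CDR3 was shared. Of short CDR3s with 0, 1, 2 and 3 such residues, 53.3%, 36.9%, 20.4% and 8.77% were found in 2 or more tumours. Longer CDR3s with the same numbers of left-over residues were shared at 77.6%, 42.7%, 28.0% and 19.6%. At each of these numbers the share was thus lower in short than in longer CDR3s, opposite to the order without regard to these residues. This comparison was made after the data were seen and was not tested.

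**Figure D3:**
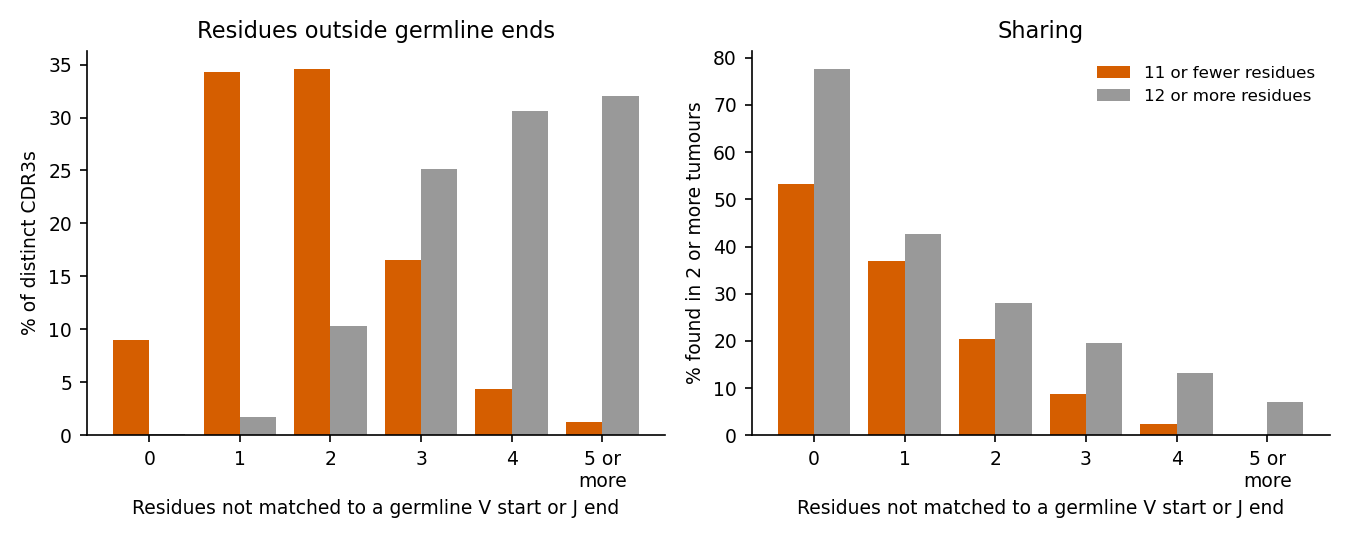
Residues matched by neither a germline V start nor the J end. Left, percent of distinct CDR3s with each number of such residues; right, percent of them found in 2 or more tumours. Short CDR3s mostly had 1 or 2 such residues, and sharing fell with their number in both length classes.

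Widely shared short CDR3s differed in how evenly their reads were spread over tumours. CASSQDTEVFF, in 20 tumours of all 4 index sets, had 10, 65 and 70 reads in 3 vehicle tumours, 17 to 140 with a median of 38 in 7 anti-PD-1 tumours and 4 to 122 with a median of 25 in 10 AC484 tumours. The 3 groups overlapped, and no tumour held under 1% of the largest count. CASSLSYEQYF had 25 and 29 reads in 2 vehicle tumours, 12 to 45 in 4 anti-PD-1 tumours and 1 to 19 with a median of 5 in 9 AC484 tumours. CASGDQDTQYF, a fully germline-matched CDR3 of Trbj2-5, was found in 13 tumours at 1 to 80 reads.

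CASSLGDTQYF and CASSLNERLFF were less even. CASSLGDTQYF had 395 reads in anti-PD-1 replicate 9 and 1 to 58 in 13 other tumours, 3 of them under 1% of the largest count. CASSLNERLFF had 218 reads in the same tumour and 1 to 15 in 9 others, 5 of them under 1% of the largest count. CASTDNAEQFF had 34448 reads in anti-PD-1 replicate 10 and 84 in all the other 14 tumours that held it. Those 14 had 1 to 41 reads each, all under 1% of the largest count, and 11 of the 12 tumours of index set 2 held it. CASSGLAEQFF had 18814 reads in anti-PD-1 replicate 3 and 1 to 22 in 10 others, and was found in 10 of the 12 tumours of index set 2 and in 1 outside it. The part of reads passed between libraries in these low counts was not tested.

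Public CDR3s, those in 10 or more tumours, were tested for presence by Fisher's exact test over all 274 of any length, 14 of them short. Between AC484 and vehicle, 4 of the 14 were called, all found in more AC484 tumours, where the background over all lengths was 29.9%. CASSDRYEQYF was in 9 of 15 AC484, 7 of 15 anti-PD-1 and 1 of 14 vehicle tumours (adjusted p = 0.0275 against vehicle, Fisher's exact test). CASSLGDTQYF was in 9, 4 and 1 of them, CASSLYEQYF in 7, 4 and 0, and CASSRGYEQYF in 7, 3 and 0, with the same adjusted p. Each of these 4 reached 10 tumours only with its AC484 tumours counted. Their choice thus drew on the same tumours as the test. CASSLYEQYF had 1 to 48 reads in the AC484 tumours and 3 to 83 in the anti-PD-1 tumours. A count of 0 allowed up to 0.00159% to 0.0593% of TRB reads in the vehicle tumours, and the highest share of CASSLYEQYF anywhere was 0.0389%. Distinct TRB CDR3s averaged 609 ± 430 in vehicle and 3801 ± 2078 in AC484 tumours, and the part of this difference in the calls was not tested. No short CDR3 was called when CDR3s of a single read were left out or when CDR3s found in at least 5 tumours were tested, and 2 were when counts under 1% of the largest were.

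Between AC484 and anti-PD-1, 1 short public CDR3 was called against a background of 1.46%. It was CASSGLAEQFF, in 0 of 15 AC484 and 9 of 15 anti-PD-1 tumours (adjusted p = 0.0479, Fisher's exact test). It was found in 10 of the 12 tumours of index set 2, which held no AC484 tumour. In set 3 it was found in 1 of 12 tumours, anti-PD-1 replicate 15, with 2 reads. For most of these tumours treatment and index set cannot be told apart. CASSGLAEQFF reached 10 tumours only with its anti-PD-1 tumours counted. Without the counts under 1% of the largest, 0 short CDR3s were called. Between anti-PD-1 and vehicle, 0 of 14 were called, against a background of 6.57%, and 4 reached an unadjusted p of 0.05 by Fisher's exact test.

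No difference between treatments in the share of short CDR3s passed the test at the limit of 11 residues. At an equal total of 5060 TRB reads, short CDR3s made up 1.10% to 5.28% of distinct CDR3s in vehicle tumours with a median of 2.84%, 2.24% to 3.95% with a median of 3.25% in anti-PD-1 tumours, and 2.47% to 3.75% with a median of 3.19% in AC484 tumours. The groups overlapped, and vehicle tumours held both the highest and the lowest value. The mean was 0.58 percentage points higher in AC484 than in vehicle tumours (3.17% ± 0.326 and 2.59% ± 1.09, n = 15 and 14, 95% interval −0.0424 to 1.20, adjusted p = 0.166, permutation test, 15 tests). Anti-PD-1 tumours stood at 3.18% ± 0.499 (n = 15), 0.59 points above vehicle (adjusted p = 0.166, permutation test) and 0.0096 points above AC484 (95% interval of AC484 minus anti-PD-1 −0.325 to 0.306).

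That result depended on which libraries entered, on the limit and on the scale. Without vehicle replicate 10, the library with the fewest TRB reads and the highest share, the differences from vehicle were 0.788 points for AC484 and 0.797 for anti-PD-1 (adjusted p = 0.00605 and 0.0128, permutation test). At a limit of 10 residues they were 0.291 and 0.191 points (adjusted p = 0.0132 and 0.0312, permutation test). Without libraries under 3.5 nM they were 0.862 and 0.953 points (adjusted p = 0.0118 and 0.0057), and without those under 10000 TRB reads, chosen after the data were seen, 0.770 and 0.710 (adjusted p = 0.0140 and 0.0285), all by the permutation test. AC484 minus vehicle also passed by ranks (adjusted p = 0.0467, permutation test). Within index set 2, anti-PD-1 and vehicle tumours stood at 3.08% ± 0.436 (n = 10) and 3.10% ± 0.171 (n = 2), a difference of −0.0120 points (exact permutation p = 0.985).

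The number of distinct short CDR3s was higher in AC484 than in vehicle tumours. At the equal total it was 1.71 to 39 with a median of 9.64 in vehicle, 9.53 to 32.4 with a median of 19.8 in anti-PD-1 and 15.3 to 58.3 with a median of 27.7 in AC484 tumours. AC484 exceeded vehicle by 15.9 ± 3.89 (SE, adjusted p = 0.00315, permutation test), and all 15 AC484 tumours lay above the vehicle median. Anti-PD-1 exceeded vehicle by 9.56 ± 3.36 (adjusted p = 0.0575) and AC484 exceeded anti-PD-1 by 6.32 ± 3.12 (adjusted p = 0.166), neither past the threshold by the permutation test. The difference of anti-PD-1 from vehicle passed it without vehicle replicate 7, 10 or 11 or anti-PD-1 replicate 6 or 10, at 10.3 to 11.7. It also passed under 9 of 14 alternatives, among them the limits of 10 and 12 residues, no equal total, ranks, and leaving out single reads or libraries under 3.5 nM. AC484 minus anti-PD-1 passed under 4 of 14, the limits of 10 and 12 residues, no equal total, and without libraries under 10000 TRB reads. The ratio of AC484 to vehicle was 2.40 for short CDR3s and 2.28 for all TRB CDR3s, which numbered 854 ± 273 and 374 ± 238 at the same total. Vehicle and AC484 tumours shared no index set.

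**Figure D4:**
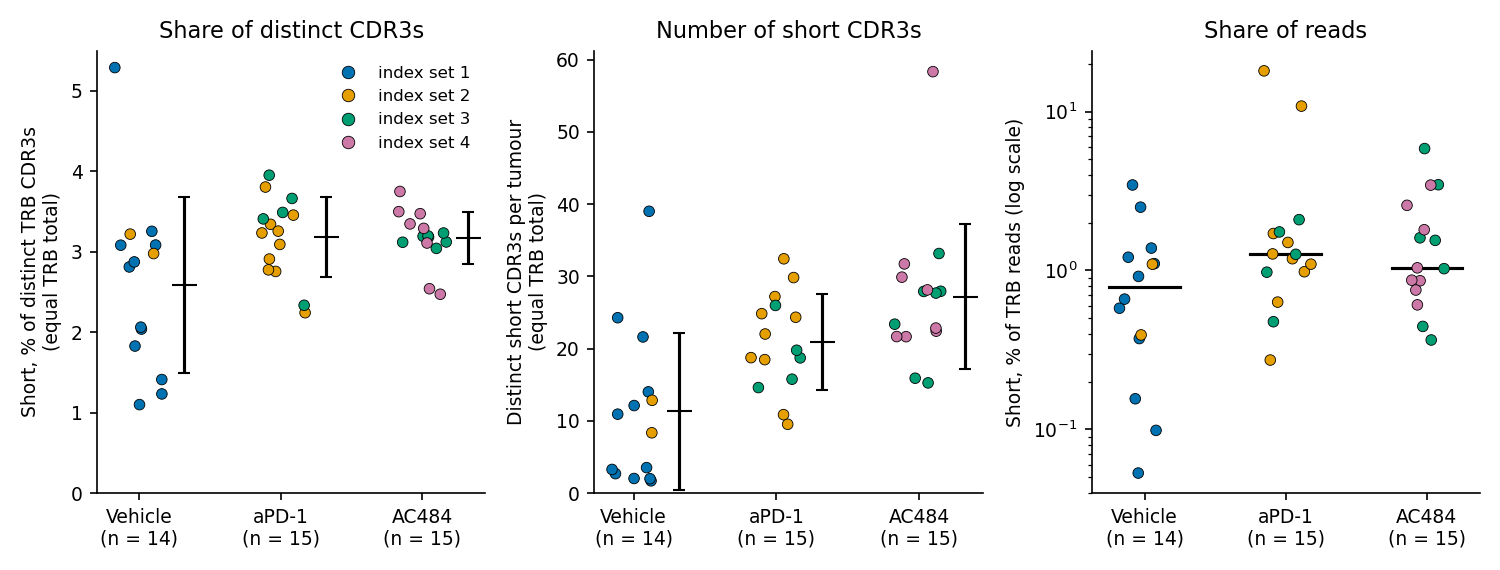
Short CDR3s by treatment, 1 point per tumour coloured by index primer set. Left and middle, percent of distinct TRB CDR3s and number of short CDR3s at an equal total of 5060 TRB reads, with mean and SD; right, percent of TRB reads on a log scale, with the median. The groups overlap in share, and AC484 tumours hold more short CDR3s than vehicle tumours.

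Reads per CDR3 were lower on average for short than for longer CDR3s. The mean was 67.8 ± 175 reads per short and 92.0 ± 66.9 per longer CDR3 (SD, n = 44), and the log2 ratio of the 2 means within a tumour was −1.46 ± 1.55, below 0 in 37 of 44 tumours (adjusted p = 1e-05, sign-flip permutation test). The short mean of a tumour rested on 2 to 268 CDR3s, far fewer than its longer mean. With very uneven counts, a mean over few CDR3s more often falls below a mean over many. Flipping signs around 0 does not allow for that, and its part in the ratio was not tested. Medians, which were not tested, averaged 11.4 ± 13.3 reads per short and 9.60 ± 6.45 per longer CDR3. Of 607 CDR3s with at least 1% of a tumour's TRB reads, 8 were short (1.32%), and of the 10 most abundant CDR3s of each tumour, 6 of 440 were short (1.36%), where short CDR3s were 3.11% of entries. CDR3s of a single read were 23.2% of short and 24.0% of longer entries. At a limit of 12 residues the log2 ratio was −0.22 (adjusted p = 0.208, permutation test). Over all entries of a length, the mean was 46.4 reads at 11 residues, 78.4 at 12, 74.8 at 13, 69.7 at 14 and 64.3 at 15. It was 46.6 at 16, 29.7 at 17 and 70.2 at 18, so a mean this low was not particular to short CDR3s.

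A few tumours held a large short clone. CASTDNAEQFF was the most abundant TRB CDR3 of anti-PD-1 replicate 10, with 17.3% of its TRB reads (95% Wilson interval 17.1% to 17.4%). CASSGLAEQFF ranked 3 in anti-PD-1 replicate 3 with 8.78% (8.66% to 8.90%). In AC484 tumours the largest were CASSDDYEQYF in replicate 3 with 5.10% (4.98% to 5.22%), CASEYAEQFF in replicate 6 with 2.76% (2.70% to 2.82%) and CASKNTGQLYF in replicate 15 with 2.32% (2.23% to 2.41%). The largest in a vehicle tumour was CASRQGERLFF in replicate 7 with 1.88% (1.79% to 1.98%), named after its value was seen. A short clone of at least 1% was found in 2 of 14 vehicle, 3 of 15 anti-PD-1 and 3 of 15 AC484 tumours. The most abundant short CDR3 of a tumour held a median of 0.285%, 0.24% and 0.176% of TRB reads in those groups, at a median rank of 47, 36 and 35.

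**Figure D5:**
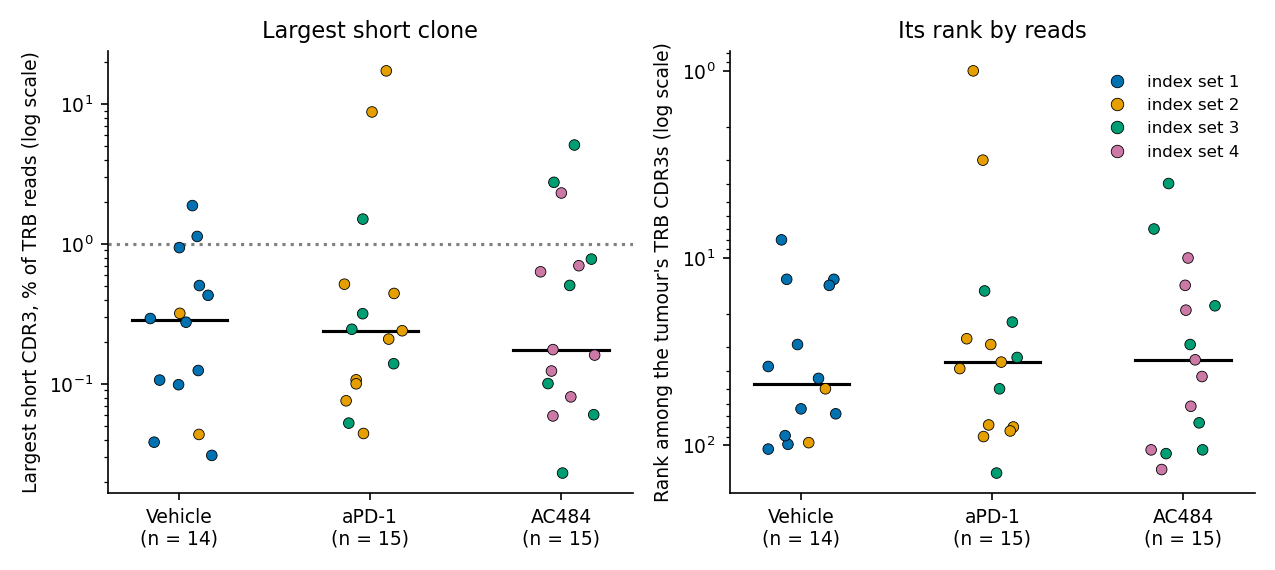
The most abundant short CDR3 of each tumour, coloured by index primer set. Left, its percent of TRB reads on a log scale, with a dotted line at 1%; right, its rank among the TRB CDR3s of the tumour on a log scale; lines give medians. Of 44 tumours, 8 lie above 1%, and anti-PD-1 replicate 10 is the highest at 17.3%.

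No treatment difference in the share of reads or in relative clone size passed the test at the limit of 11 residues. Short CDR3s took 0.0532% to 3.45% of TRB reads in vehicle, 0.273% to 18.03% in anti-PD-1 and 0.365% to 5.85% in AC484 tumours, with medians of 0.789%, 1.26% and 1.04%. The groups overlapped, and anti-PD-1 replicates 10 (18.03%) and 3 (10.8%) stood above all the other tumours. The differences were 0.75 points for AC484 and 1.94 for anti-PD-1 against vehicle and −1.19 for AC484 against anti-PD-1 (adjusted p = 0.234, 0.264 and 0.566, permutation test). At a limit of 10 residues the differences from vehicle, 0.309 and 0.113 points, passed (adjusted p = 0.0312 and 0.0405, permutation test). Without those 2 tumours, AC484 stood 0.581 points above anti-PD-1. The log2 ratio of mean reads was −2.08 ± 1.69 in vehicle (n = 14), −1.06 ± 1.66 in anti-PD-1 (n = 15) and −1.29 ± 1.16 in AC484 tumours (n = 15), with adjusted p of 0.234 to 0.731 by the permutation test. The sharing of short CDR3s at the equal total, at 64.5% ± 24.4, 61.7% ± 6.83 and 57.0% ± 5.31, did not pass either (adjusted p of 0.166 to 0.731, permutation test). Only a tumour's own CDR3s were weighted to that total, while presence in other tumours was taken from all their reads. The sharing values of the tumours thus depend on one another, which the permutation test does not allow for. AC484 minus anti-PD-1, −4.69 points, passed with no equal total, at a limit of 12 residues and without libraries under 3.5 nM, at −5.13 to −6.97 points (adjusted p of 0.0124 to 0.024, permutation test), and AC484 minus vehicle passed at 12 residues, at −9.28 points (adjusted p = 0.0333, permutation test).

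Short CDR3s more often had a near relative in their own tumour. Of a tumour's distinct short CDR3s, 43.6% ± 22.6 differed from another TRB CDR3 of that tumour by 1 substitution, insertion or deletion of a residue, against 31.3% ± 12.5 of longer ones (SD, n = 44). The difference of 12.3 points ± 13.1 was positive in 37 of 44 tumours (adjusted p = 1e-05, sign-flip permutation test). It was 3.37 points in vehicle tumours alone (adjusted p = 0.485, permutation test) and 4.16 points at a limit of 10 residues (adjusted p = 0.129, permutation test). At a limit of 12 residues it was 13.1 points. A distance of 1 residue was allowed at every length, so the measure is not independent of the length limit. The part of length in the difference was not tested. The trait was not particular to 11 residues or fewer. Of all entries of a length, 53.6% had a near relative at 10 residues, 59.3% at 11, 54.5% at 12 and 49.9% at 13. The figures were 45.8% at 14, 33.9% at 15 and 20.9% at 16. Only 1.85% of short and 0.963% of longer entries lay next to a CDR3 with at least 100 times their reads, and the difference without such entries was 12.6 points.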

How the data were processed

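TCRα and TCRβ transcripts of 44 bulk tumours were amplified with a 5′ RACE kit without molecular identifiers and sequenced, and the authors assembled CDR3s with MiXCR (mm10 per the submitters' notes; filters not given in the sources used here). The table deposited by the authors holds read counts per CDR3 amino acid sequence and tumour. The counts were used as deposited; the proportions beside them were not. TRB CDR3s were those ending in 1 of 12 J endings, found in no germline TRAJ segment. Numbers and shares of distinct CDR3s were computed at an equal total of 5060 TRB reads by exact rarefaction. For treatment sharing, a tumour's own CDR3s were weighted to that total, but presence in other tumours was taken from all their reads. Tests were two-sided permutation or sign-flip tests (100000 resamples), exact permutation tests within index sets, Fisher's exact test, and edgeR 4.0.16 on numbers of distinct CDR3s (TMM, at least 100 per class, all 44 tumours), each with Benjamini-Hochberg adjustment and a threshold of 0.05. DESeq2 1.42.0, R 4.3.3, Python 3.11.15 and SciPy 1.17.1 were used. Germline segments were read from GENCODE for GRCm38, and V starts were translated in whole codons. edgeR was tested on simulated data (68 classes, AC484 against vehicle): 91.2% of 240 2-fold changes were recovered, with 8 false calls. The changed classes were drawn from all 68 with 1 dispersion for all, so recovery in the short classes alone was not measured. Replicate numbers were not taken to pair tumours. Correlations of deviations between tumours of the same number ran from −0.651 to 0.227 in the share of distinct CDR3s. In the share of reads they ran from 0.109 to 0.512. These values do not settle whether the numbers pair tumours, and a paired run is given below. The p-values measure the spread between these tumours, since the labels do not tie each to its own mouse. Named CDR3s were the 10 in most tumours, the 5 largest clones, the most shared of each J gene and of the 3 shortest lengths in at least 10 tumours, and the public ones called. The members and lists were chosen with earlier results of these data known.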

Additional observations from a re-analysis of the deposited data

Results flagged for a closer look

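The excess of short over longer CDR3s with a near relative in the same tumour differed between AC484 and vehicle tumours. It was 18.9 percentage points ± 6.15 in AC484 (n = 15) and 3.37 ± 17.3 in vehicle tumours (n = 14), a difference of 15.5 points (adjusted p = 0.0185 over 6 tests, permutation test, chosen after the data were seen). The differences of 4.87 points for AC484 minus anti-PD-1 and 10.7 for anti-PD-1 minus vehicle did not pass (adjusted p = 0.190 and 0.137, permutation test). The excess was positive in 15 of 15 AC484 and 7 of 14 vehicle tumours. Vehicle tumours held 2 to 46 distinct short CDR3s and AC484 tumours 56 to 268, and the part of these numbers in the difference was not tested. Of CDR3s of 11 residues or fewer with the last 4 residues of a J ending, 38.0% lay outside the comparisons above, as 1825 entries with 59867 reads.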

How the results depend on the processing

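With tumours paired by replicate number (replicate block), AC484 exceeded vehicle by 15.7 short CDR3s (adjusted p = 0.00225, permutation test), and no call changed. That excess kept its direction and its call under all 13 alternatives and each tumour left out (13.7 to 18.005), as did the excess in sharing of short over longer CDR3s under its 9 (12.1 to 22.2 points). At a limit of 10 residues, the share of distinct CDR3s differed from vehicle by 0.291 points in AC484 and 0.191 in anti-PD-1, the share of reads by 0.309 and 0.113 and the number in anti-PD-1 by 1.54, all past the threshold. AC484 minus anti-PD-1 was then 0.101 points in share, 0.196 in reads, 1.74 in number (past it), 3.93 in sharing and 0.29 in clone size (log2), sharing in AC484 minus vehicle was 2.57, the excess in near relatives was 4.16 points, and Trbj2-5 stood at −1.74 points. At a limit of 12, AC484 minus vehicle was 1.38 points in share and −9.28 in sharing, AC484 minus anti-PD-1 26.7 in number and −5.13 in sharing and anti-PD-1 minus vehicle 37.8 in number, all past it, with AC484 minus anti-PD-1 0.263 in share and the clone-size ratio −0.22, not past it. With no equal total, AC484 minus anti-PD-1 was 0.0656 points in share (not past it), 58 in number and −5.21 in sharing, and anti-PD-1 minus vehicle 43.7 in number (all past it). Anti-PD-1 minus vehicle was 11.3 in number without single reads (past it). By ranks, the difference in mean rank was 8.15 in share for AC484 minus vehicle, and 8.98 in number and 0.276 in sharing for anti-PD-1 minus vehicle, past it except in sharing. Without libraries under 3.5 nM, the differences from vehicle in share were 0.862 and 0.953 points, anti-PD-1 minus vehicle was 17.1 in number and AC484 minus anti-PD-1 −6.97 in sharing, all past it. Within index sets, anti-PD-1 minus vehicle was −0.0120 points in share, and AC484 minus anti-PD-1 0.733 in reads and 0.21 in clone size, none past it. By alternatives chosen after the data were seen, the last 4 residues of the J endings gave 0.0591 points in share for AC484 minus anti-PD-1 and 16.03 in number for anti-PD-1 minus vehicle, the latter past it. Without libraries under 10000 TRB reads, the shares differed from vehicle by 0.770 and 0.710 points, AC484 minus anti-PD-1 by 0.0601 points and 20.9 in number, and anti-PD-1 minus vehicle by 21.3 in number, all past it but 0.0601. Without anti-PD-1 replicates 3 and 10, AC484 minus anti-PD-1 was 0.581 points in reads and 0.33 in clone size, and anti-PD-1 minus vehicle 10.5 in number (the last past it). With each tumour left out, the share differed by 0.466 to 0.788 points (AC484 minus vehicle), 0.475 to 0.797 (anti-PD-1 minus vehicle) and −0.0766 to 0.0454 (AC484 minus anti-PD-1), the number by 8.73 to 11.7 (anti-PD-1 minus vehicle) and clone size by −0.42 to 0.0701 (AC484 minus anti-PD-1). The excess in near relatives was 3.37 points in vehicle tumours alone. By reads, 4 J genes were called, with Trbj1-1 at −1.61, Trbj2-1 at 7.45 and Trbj2-5 at −1.13 points. The 4 short public CDR3s called between AC484 and vehicle, and the 1 between AC484 and anti-PD-1, became 0 and 0 when CDR3s in at least 5 tumours were tested, 0 and 0 without single reads, and 2 and 0 without counts under 1% of the largest. The cause was not tested, other than where fewer tumours or CDR3s entered. Vehicle tumours with 2 or 3 short CDR3s limit the precision of every vehicle mean.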
